A study of Mus musculus with 26 samples.

Results

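The mitochondrial respiratory chain subunits were described here as 76 nuclear genes, of 24411 gene symbols counted in mouse CD4+ T cells. They were chosen by symbol and a read minimum, as genes of the Nduf (complex I), Sdh (complex II), Uqcr (complex III), Cox4 to Cox8 (complex IV) and Atp5 (complex V) series with at least 260 reads summed over 26 libraries. Of 84 symbols in these series, 8 had fewer reads, and 76 remained. By symbol alone, here and below, 35 were placed with complex I, 4 with complex II, 8 with complex III, 12 with complex IV and 17 with complex V. Without the 4 libraries of Foxp3KO Treg and their controls, Atp5g1, Atp5g2, Atp5l and Cox7a1 would have had fewer reads than the minimum. Just inside the minimum was Cox7a1 with 285 reads, and just outside it was Cox6b2 with 233. The symbols Atp5s and Atp5sl match the rule, but their products are assembly-related factors and not subunits of the enzyme. The 13 subunits that the mitochondrial genome encodes are not analysed here.

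The respiratory chain sits in the inner mitochondrial membrane. Complexes I and II pass electrons from NADH and succinate to ubiquinone, complex III passes them to cytochrome c, and complex IV passes them to oxygen, while complexes I, III and IV pump protons. Complex V, the ATP synthase, uses the resulting gradient to make ATP, and T cells are known to shift between this route and glycolysis as they are activated.

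Cells were taken from spleen and lymph nodes of C57BL6/J animals and sorted without culture, and poly(A) RNA was sequenced in 13 groups with 2 libraries each. Regulatory T cells (Treg) depend on the transcription factor Foxp3 and were sorted on a reporter expressed from the Foxp3 gene, either human CD2 (hCD2) or YFP. Sorted by surface markers from Foxp3-IRES-hCD2 mice, the cTreg were CD4+hCD2+CCR7hiCD62LhiCD44lo, the eTreg CD4+hCD2+CCR7loCD62Llo, the Tnaive CD4+hCD2-CCR7hiCD62LhiCD44lo and the Teff CD4+hCD2-CCR7loCD62Llo. From mice with the same reporter came CD4+hCD2+ WT Treg, CD4+hCD2+ BATFKO Treg (Batf-/-) and CD4+hCD2- cells titled Tconv, whose cell type label nevertheless reads Treg. The WT Treg YFP and BATFcKO Treg YFP were CD4+YFP+hCD2- cells of mice carrying Foxp3-IRES-YFPCre and Foxp3-IRES-hCD2, the second group with Batf flox/flox, so that Cre was expressed from the Foxp3 gene. Foxp3R397W Treg (Foxp3R397W-IRES-hCD2/Foxp3-IRES-GFP) and Foxp3KO Treg (Foxp3fs101-IRES-hCD2/Foxp3-IRES-GFP) were CD4+hCD2+GFP- cells. Each of these mutants had its own controls, and both control groups were CD4+hCD2+GFP- cells of Foxp3WT-IRES-hCD2/Foxp3-IRES-GFP mice. The mice of the R397W and Foxp3KO groups thus still held GFP+ Treg with wild-type Foxp3. Ages are not given. Nothing in the labels ties the libraries to separate animals, so the p-values measure only the spread between these samples, which may be technical.

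Library totals ran from 5615929 to 34613707 reads. The 4 libraries of the Foxp3KO set (mutant and controls) were the deepest, at 26321134 or more, and the highest total elsewhere was 10641332. Foxp3 stood at 325.6 to 809.4 CPM (each library's counts over its TMM-adjusted total) in the Treg groups other than Foxp3KO Treg, which had 108.8 and 113.1, and at 4.07 or less in Tnaive, Teff and Tconv. Batf stood at 7.22 and 6.83 CPM in BATFKO Treg against 46.1 and 82.9 in WT Treg, and at 19.5 and 15.9 in BATFcKO Treg YFP against 67.8 and 58.5 in WT Treg YFP. The summed T cell markers (Cd3e, Cd3d, Cd4 and Lck) reached at least 2450 CPM in every group. Treg markers summed to at least 1490 CPM in the Treg groups and to 18.9 to 581 in Tnaive, Teff and Tconv. B cell markers summed to at most 23.6 CPM and erythroid markers to at most 0.699. The stromal list reached 284 CPM, nearly all of it Pecam1, which T cells also express. Of the other lists, the myeloid and dendritic sum was 279 to 639 CPM in Teff against 103 to 197 elsewhere, and the CD8 and NK sum was 165 to 224 CPM in Teff against 13.6 to 40.4 elsewhere. These 2 sums were highest in Teff, and their part in the subunit levels of Teff was not tested.

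The promoters of some members are shown first, as the 250 bases before the RefSeq transcription start on GRCm38.p6, written 5′ to 3′ on the gene's strand. Capitals mark short words known as cores of binding sites for factors of respiratory genes, on either strand. The words searched were NRF1 (GCGCATGCG), ETS including GABP (CCGGAAG), YY1 (AAGATGGCG), ERR (TCAAGGTCA) and SP1 (GGGCGG). Cox7a2l, Uqcrfs1 and Atp5b are shown because they were the members lower in eTreg than in cTreg under every alternative tried. Cox6a1 and Atp5k, not called in any comparison of the main fit, are shown as examples of members that carry the NRF1 word. The Cox7a2l window lies inside the gene span given below, downstream of the 5′ end of that span. These windows lie at chr17:83514334-83514583 (minus strand), chr13:30545317-30545566 (minus), chr10:128083057-128083306 (plus), chr5:115348959-115349208 (minus) and chr5:108434400-108434649 (minus).
Cox7a2l: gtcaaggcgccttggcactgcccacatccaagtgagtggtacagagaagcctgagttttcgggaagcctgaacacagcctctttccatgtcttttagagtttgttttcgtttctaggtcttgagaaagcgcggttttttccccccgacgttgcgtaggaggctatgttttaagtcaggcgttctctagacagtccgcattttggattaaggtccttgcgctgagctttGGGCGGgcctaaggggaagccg
Uqcrfs1: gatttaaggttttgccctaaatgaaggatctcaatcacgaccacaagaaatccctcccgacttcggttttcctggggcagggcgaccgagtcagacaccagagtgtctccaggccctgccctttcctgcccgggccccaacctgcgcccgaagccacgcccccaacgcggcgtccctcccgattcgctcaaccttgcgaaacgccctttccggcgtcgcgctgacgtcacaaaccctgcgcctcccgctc
Atp5b: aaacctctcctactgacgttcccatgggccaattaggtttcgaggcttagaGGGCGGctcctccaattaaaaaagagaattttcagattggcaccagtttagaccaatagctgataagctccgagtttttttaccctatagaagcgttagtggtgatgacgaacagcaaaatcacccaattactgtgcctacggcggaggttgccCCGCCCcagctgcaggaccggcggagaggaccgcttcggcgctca
Cox6a1: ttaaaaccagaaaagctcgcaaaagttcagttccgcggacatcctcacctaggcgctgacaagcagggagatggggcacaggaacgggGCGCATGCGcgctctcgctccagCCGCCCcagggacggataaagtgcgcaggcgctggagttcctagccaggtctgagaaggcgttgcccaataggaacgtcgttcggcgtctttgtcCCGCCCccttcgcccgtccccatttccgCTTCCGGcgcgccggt
Atp5k: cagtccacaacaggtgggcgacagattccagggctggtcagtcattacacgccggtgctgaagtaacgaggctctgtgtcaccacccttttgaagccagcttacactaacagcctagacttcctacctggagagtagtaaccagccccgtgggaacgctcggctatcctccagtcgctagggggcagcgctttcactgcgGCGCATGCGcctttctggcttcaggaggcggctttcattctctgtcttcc
Only SP1 words were marked in Cox7a2l and Atp5b and no word in Uqcrfs1, whereas Cox6a1 held an NRF1 word, an ETS word and 2 SP1 words. Over windows of 300 bases (250 before and 50 after the start), RefSeq held 65 of the members. The NRF1 word was in 8 of these 65 windows (12.3%) and in 1.81% of 27025 windows of all genes. The ETS word was in 15 (23.1%, against 9.12% of all), the YY1 word in 7 (10.8% against 1.49%) and the ERR word in 2 (3.08% against 0.407%). SP1 words were in 26 (40.0% against 35.9%), the E-box CACGTG in 7 (10.8% against 7.24%), and the AP-1 word TGANTCA, the kind of element that BATF is known to bind, in 7 (10.8% against 7.93%). The forkhead word TGTTTAC, of the kind that Foxp3 is known to bind, was in 2 (3.08% against 3.55%). These are matches of letters, with no test, and no match says only that the letters are not in the window.

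Together the members took between 0.514% and 0.697% of the reads of a library. Per kilobase of exon, the highest mean levels over all libraries were those of Atp5a1 (196 CPM per kb), Cox4i1 (179.9), Atp5b (154.5), Cox6b1 (132.7) and Cox6a1 (128.6), which encode the alpha and beta subunits of the ATP synthase and 3 subunits of cytochrome c oxidase. The summed level of the members, in TMM-scaled CPM, was 6263 and 6491 in Tnaive, 6205 and 6514 in Teff, 6236 and 6519 in cTreg, and 5661 and 6047 in eTreg. The eTreg libraries were below the other 6 of these sorted cells, and the remaining groups overlapped. In bulk libraries, fewer cells of a type and less RNA per cell cannot be told apart.

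**Figure D1:**
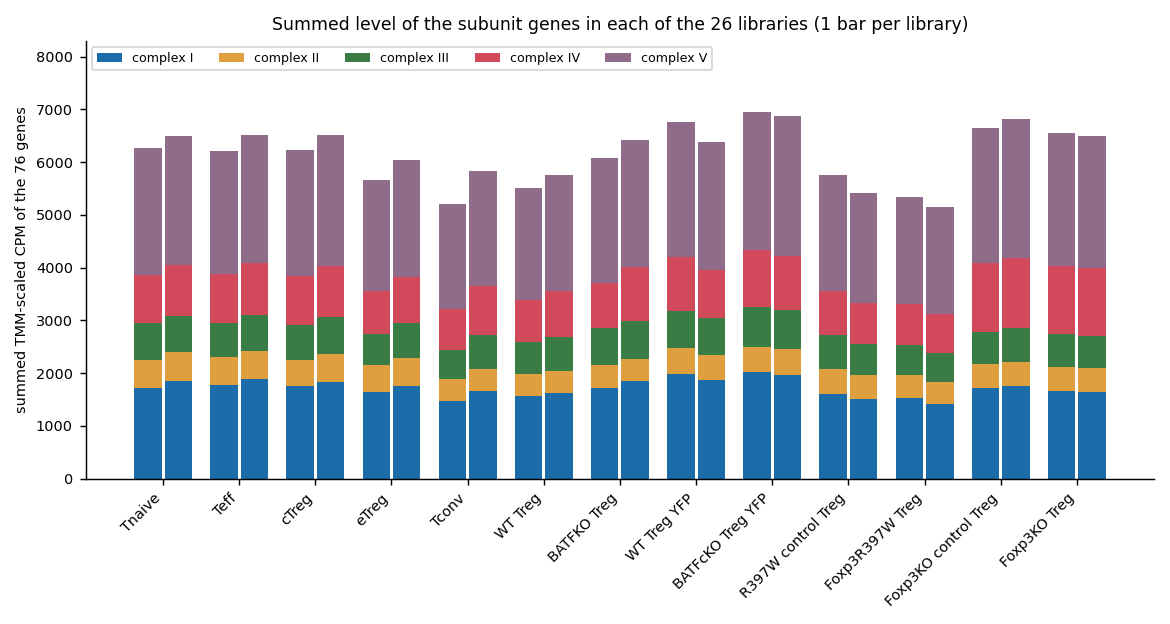
Summed level of the 76 subunit genes (TMM-scaled CPM, vertical axis) in each of the 26 libraries, 1 bar per library, grouped along the horizontal axis and coloured by complex. Complex V gives the largest part of every bar, and the sums run from 5140 in a Foxp3R397W library to 6950 in a BATFcKO library.

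Effector against central Treg asks how subunit genes differ between the CCR7loCD62Llo and the CCR7hiCD62LhiCD44lo state. Of 75 members tested (Cox7a1 did not pass the expression filter), 6 were lower and 0 higher in eTreg by edgeR's quasi-likelihood test at an adjusted p below 0.05. Of all 12227 tested genes, 12.3% were called lower and 18.8% higher, so the members' 8.0% called lower lies below the background. The median absolute log2 fold change was 0.127 over the members and 0.293 over all tested genes. For 60 of the 75, the 95% interval of the fold change lay within 1.5-fold either way. The log2 fold change was below 0 for 53 members and above 0 for 22, with a median of -0.09 (0.01 over all genes), and 30 members had both eTreg libraries below both cTreg libraries, against 35.4% of all genes.

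Cox7a2l encodes a factor that joins complexes III and IV into supercomplexes, and the strain used here is known to carry a shortened allele of it. The gene lies at chr17:83501918-83517330 on GRCm38, minus strand, and a count per gene does not tell its alleles apart. Its level was 143.4 and 161.8 CPM in cTreg and 93.7 and 91.9 in eTreg, with no overlap. It fell by 0.72 on the log2 scale (SE 0.09, edgeR adjusted p 2.3e-06), the largest change of a called member in this comparison. Conventional cells showed a difference of like size, with 164.3 and 162.5 CPM in Tnaive and 97.9 and 101.9 in Teff. There it fell by 0.71 (SE 0.09, edgeR adjusted p 2.1e-06). Cox7a2l was called lower in both comparisons under all 13 alternatives, with highest adjusted p-values of 0.00015 and 0.00012. The change in Treg minus the change in conventional cells was -0.01 (95% interval -0.26 to 0.24). In the groups sorted without markers of the naive or effector state it stood at 101.1 to 128.4 CPM, except in the 4 libraries of the Foxp3KO set, at 259.5 to 310.3 CPM.

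**Figure D2:**
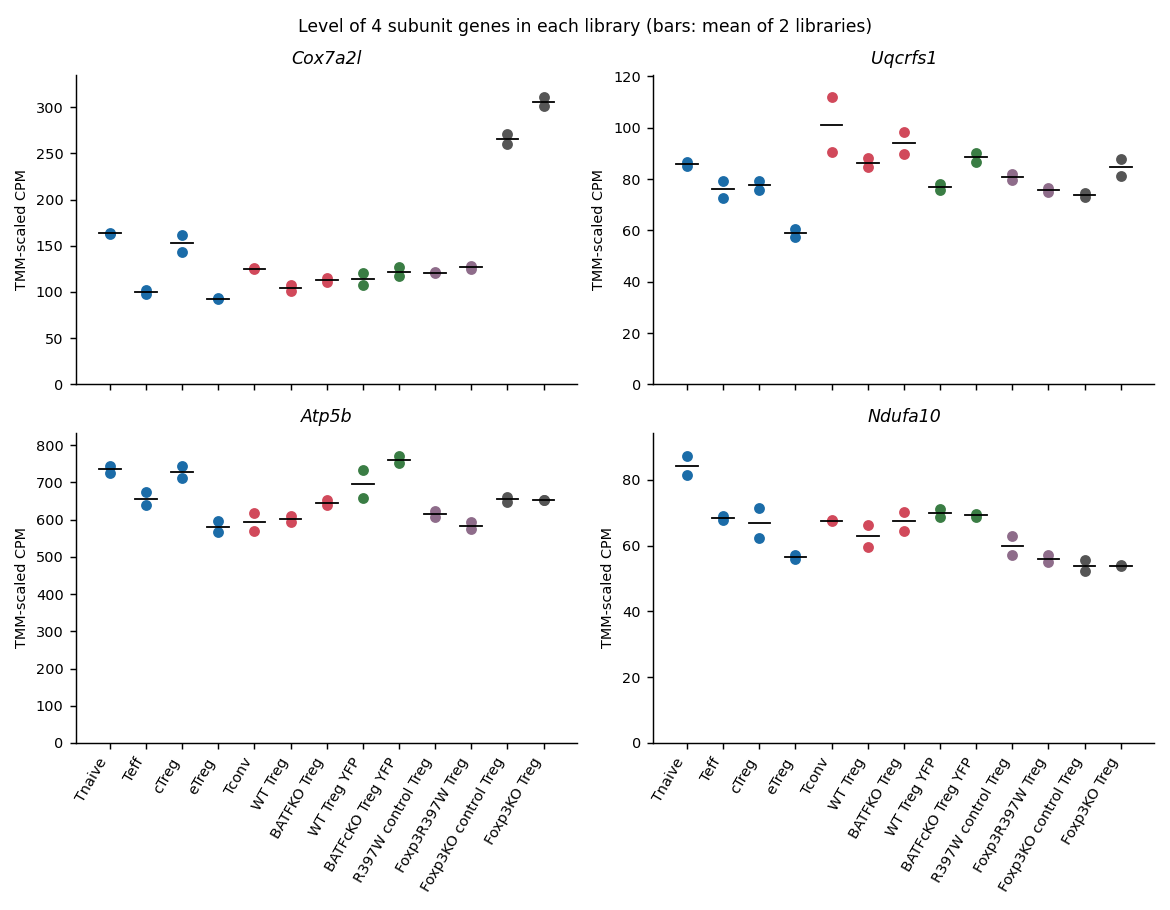
TMM-scaled CPM (vertical axes, from 0) of Cox7a2l, Uqcrfs1, Atp5b and Ndufa10 in each library, as points by group, with bars for the mean of 2 libraries and colours for the sets of groups compared with each other. Cox7a2l is low in Teff and eTreg (91.9 to 101.9) and high in the Foxp3KO set (259.5 to 310.3).

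Uqcrfs1, the Rieske iron-sulfur protein of complex III, had 75.9 and 79.5 CPM in cTreg and 57.4 and 60.4 in eTreg, with no overlap. It fell by 0.40 (SE 0.10, edgeR adjusted p 0.0031). Its level was 86.7 and 85.2 CPM in Tnaive and 72.7 and 79.5 in Teff, a log2 difference of -0.18 that did not pass (edgeR adjusted p 0.17). The difference between these 2 changes was -0.22 (95% interval -0.51 to 0.06). The Rieske gene was nevertheless lower in eTreg than in Teff, by 0.37 on the log2 scale (SE 0.10, edgeR adjusted p 0.011), a comparison that shares the eTreg libraries with the first. That call was lost without eTreg 1 or without Teff 2.

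Atp5b, the catalytic beta subunit of the ATP synthase, had 713.3 and 744.4 CPM in cTreg and 566.7 and 596.5 in eTreg. It fell by 0.33 (SE 0.08, edgeR adjusted p 0.0039). Its partner Atp5a1, the alpha subunit, had 655.2 and 685.8 CPM in cTreg and 586.3 and 621.3 in eTreg, also without overlap, but its change of -0.15 did not pass (edgeR adjusted p 0.17). Uqcrfs1 and Atp5b, like Cox7a2l, were called lower in eTreg under all 13 alternatives.

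The other 3 called members lost their call when single libraries were left out. Ndufa6, an accessory subunit of complex I, had 81.0 and 82.7 CPM in cTreg and 62.6 and 60.01 in eTreg, and fell by 0.42 (edgeR adjusted p 0.034). It was not called without any 1 of the 4 libraries. Uqcrh, the hinge protein of complex III, fell by 0.23 (edgeR adjusted p 0.047) from 135.2 and 142.2 to 111.2 and 125.0 CPM. It was not called without cTreg 1, cTreg 2 or eTreg 1, with DESeq2 size factors or without a filter on low counts. Ndufa10, an accessory subunit of complex I, fell by 0.24, from 62.4 and 71.4 to 57.1 and 56.1 CPM. Its adjusted p rounds to 0.05 and was under the threshold. Ndufa10 was not called without cTreg 2, eTreg 1 or eTreg 2, or without a filter on low counts.

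The catalytic core of complex I and complex II gave no call. Ndufv1, which binds NADH, had 92.4 and 94.1 CPM in cTreg and 78.9 and 93.6 in eTreg, so that the groups overlapped. Ndufs1, an iron-sulfur subunit of the same arm, differed by -0.13 (95% interval -0.49 to 0.23). The flavoprotein Sdha differed by 0.07 (-0.11 to 0.26) and the iron-sulfur subunit Sdhb by -0.02 (-0.23 to 0.19). The median log2 fold change was 0.03 over the 4 genes of complex II. The medians were -0.08 in complex I, -0.11 in complex III, -0.13 in complex IV and -0.14 in complex V. The core protein Uqcrc1 differed by -0.15, and Cox4i1, the regulatory subunit of complex IV, by -0.21, neither past the threshold. Cox8a, a small subunit of complex IV, went the other way, from 61.2 and 58.5 CPM in cTreg to 78.8 and 80.4 in eTreg, a difference of 0.41 with an edgeR adjusted p of 0.10. Uqcr10, of complex III, stood at 44.1 and 40.1 against 48.6 and 55.9 CPM (0.31, edgeR adjusted p 0.076).

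Fitted on the 4 libraries of the comparison alone, 13 members were called lower and 2 higher (Cox8a and Uqcr10). Without the 6 libraries of WT Treg, BATFKO Treg and Tconv, an alternative added after the values were seen, 7 were lower and the same 2 higher. For these and all other alternative fits given here and below, the share of all tested genes called in the same fit was not counted. Their counts of members therefore have no background beside them.

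Effector against naive conventional cells put the same question to hCD2- cells. Here 2 members were higher and 2 lower in Teff, against 21.2% of all tested genes called higher and 14% called lower. Ndufb8, an accessory subunit of the membrane arm of complex I, had 35.9 and 38.8 CPM in Tnaive and 46.0 and 50.5 in Teff, and rose by 0.37 (SE 0.11, edgeR adjusted p 0.011). Cox6b1, on the outer face of complex IV, had 88.9 and 85.4 CPM in Tnaive and 96.8 and 112.7 in Teff, and rose by 0.27 (SE 0.10, edgeR adjusted p 0.047). Beside Cox7a2l, described above, Ndufa10 fell by 0.30 (SE 0.09, edgeR adjusted p 0.013), from 81.4 and 87.3 to 67.9 and 69.1 CPM. Leaving out 1 library gave 0 to 2 higher and 1 to 2 lower calls. Ndufb8 was lost without Tnaive 1 or Teff 2, Cox6b1 without Tnaive 1, Tnaive 2 or Teff 2, and Ndufa10 without Tnaive 2, Teff 1 or Teff 2. All of these were also lost without a filter on low counts. Cox6b1 was lost as well with DESeq2 size factors and in the fit without the Foxp3KO set.

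More members sat above 0 in this comparison than in the Treg one, 46 of 75, with a median of 0.04 (0.01 over all genes). In complex IV the median was 0.21, with 8 of 11 above 0. Cox5b stood at 22.9 and 23.3 CPM in Tnaive and 29.3 and 31.6 in Teff, a difference of 0.40 (edgeR adjusted p 0.065). Cox6c, whose exons share bases with Vps13b on the other strand, differed by 0.38 (edgeR adjusted p 0.057) and Cox8a by 0.42 (0.082), each with both Teff libraries above both Tnaive libraries. Fitted on the 4 libraries of this comparison, 13 members were higher and 3 lower, and without the WT Treg, BATFKO Treg and Tconv libraries 13 were higher and 5 lower.

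The difference between the Treg and the conventional change was tested as a contrast of the same model, and 0 of 75 members were called by edgeR or by DESeq2, against 5.42% of all tested genes by edgeR. An unadjusted p below 0.05 was reached by 1 member, Cox5b (-0.53, 95% interval -1.01 to -0.05, edgeR adjusted p 0.28). The next 2 were Cox7b (-0.38) and Cox5a (-0.37), both with an edgeR adjusted p of 0.36. All 3 belong to complex IV, and 61 of 75 members had a value below 0.

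**Figure D3:**
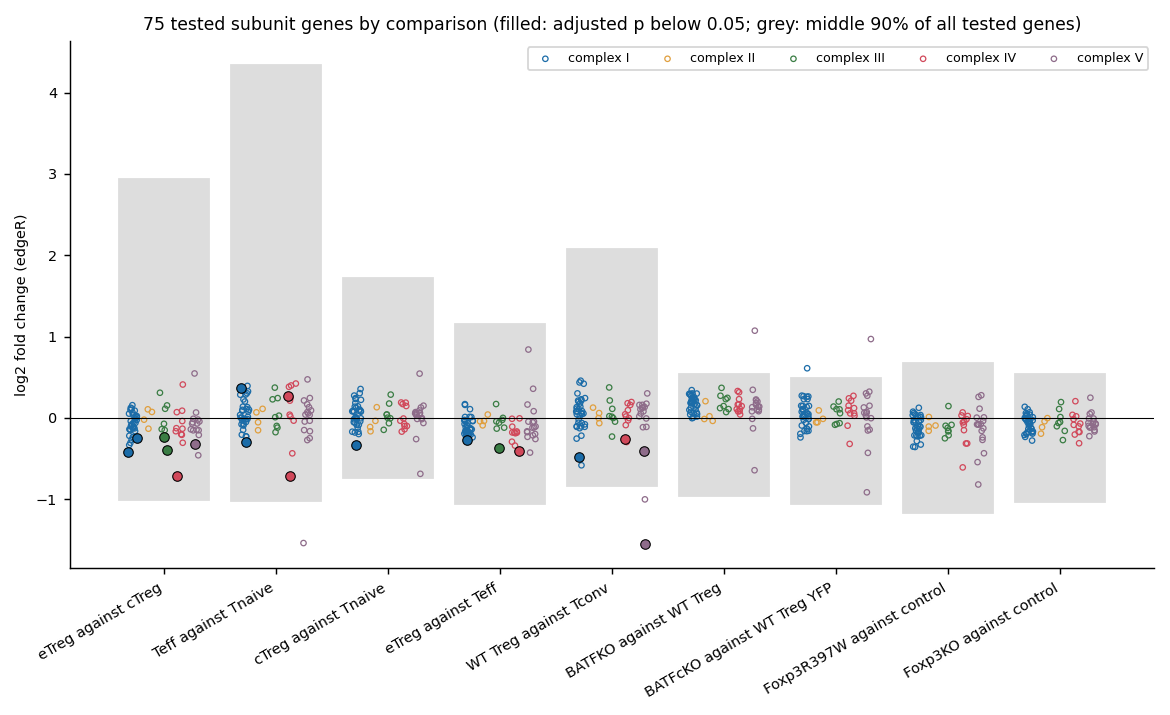
edgeR log2 fold change (vertical axis) of the 75 tested members in 9 comparisons (horizontal axis), 1 point per gene, coloured by complex, filled where called. Grey boxes span the middle 90% of all tested genes, which in eTreg against cTreg reaches from -1.005 to 2.937, whereas Cox7a2l, the lowest member there, lies at -0.72.

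Treg against conventional cells was compared in 3 settings. Between cTreg and Tnaive, 1 member was lower and 0 higher, against 4.29% and 7.91% of all genes. It was Ndufa10, with 62.4 and 71.4 CPM in cTreg and 81.4 and 87.3 in Tnaive, which fell by 0.33 (SE 0.09, edgeR adjusted p 0.017). The call was lost without cTreg 1, without Tnaive 2 or without a filter on low counts. Tnaive had the highest level of this gene among the 4 sorted groups. The uncalled members with the smallest p were Atp5sl (-0.26, edgeR adjusted p 0.24), Sdha (-0.16, 0.32) and Ndufc2 (0.24, 0.38).

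Between eTreg and Teff, 3 members were lower and 0 higher, against 7.26% and 8.21% of all genes. They were Uqcrfs1, given above, Cox5a and Ndufa10. Cox5a, the matrix-side subunit of complex IV, had 59.7 and 57.8 CPM in eTreg and 79.2 and 76.1 in Teff, and was lower by 0.40 on the log2 scale (SE 0.13, edgeR adjusted p 0.034). Ndufa10 had 57.1 and 56.1 against 67.9 and 69.1 CPM (-0.28, edgeR adjusted p 0.046). Cox5a and Ndufa10 were not called without any 1 of the 4 libraries. Ndufa10 was also lost without a filter on low counts and in the fit without the Foxp3KO set. Below 0 lay 62 of 75 members, among them all 11 of complex IV, with a median of -0.12, and 40 had both eTreg libraries below both Teff libraries, against 30.2% of all genes. Teff is the group with markers of other cell types, as given above, and their part in these differences was not tested. Without the WT Treg, BATFKO Treg and Tconv libraries, 7 members were lower.

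Between WT Treg and Tconv, 4 members were lower in WT Treg and 0 higher, against 6.68% and 12.1% of all genes. Ndufv3, of the NADH-oxidising module of complex I, had 46.0 and 54.7 CPM in WT Treg and 63.2 and 77.4 in Tconv (-0.49, SE 0.13, edgeR adjusted p 0.012). Cox7a2l had 107.9 and 101.1 against 124.7 and 125.7 CPM (-0.26, edgeR adjusted p 0.042). Atp5sl, a member by symbol but not a subunit, had 47.3 and 64.9 against 68.8 and 79.8 CPM (-0.41, edgeR adjusted p 0.029). Atp5l, the g subunit of the ATP synthase, was called at 0.816 and 0.330 against 1.95 and 1.61 CPM (-1.55, edgeR adjusted p 0.033), which rests on 6, 2, 11 and 10 reads. Fitted on these 4 libraries alone, edgeR called 0 members. Cox7a2l was not called without any 1 of the 4 libraries or without a filter on low counts. Ndufv3 and Atp5sl were not called without WT Treg 1 or without Tconv 2. Atp5l was lost with DESeq2, in the fit without the Foxp3KO set, without WT Treg 2 and without either Tconv library. Without Tconv 1 there were 3 lower, without Tconv 2 there were 0 lower and 1 higher (Ndufb8), without WT Treg 1 there was 1 lower, and without WT Treg 2 there were 2 lower and 1 higher (Ndufc2).

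The libraries of WT Treg, BATFKO Treg and Tconv differed within their groups more than those of other groups, and did so in a shared way. In 35 members library 2 exceeded library 1 in all 3 groups, and in 19 it was lower in all 3, against 34.2% and 34.0% of all tested genes. Cox4i1 had 223.2 and 285.8 CPM in WT Treg 1 and 2, 252.4 and 345.0 in those of BATFKO, and 220.6 and 298.2 in those of Tconv. Ndufa4, placed here by its symbol with complex I although its product is now assigned to complex IV, went the other way, with 60.5 and 45.8, 68.2 and 49.0, and 53.2 and 43.7 CPM. The labels do not say what a number stands for. With the number as a block, WT Treg against Tconv had 3 members higher and 4 lower.

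**Figure D4:**
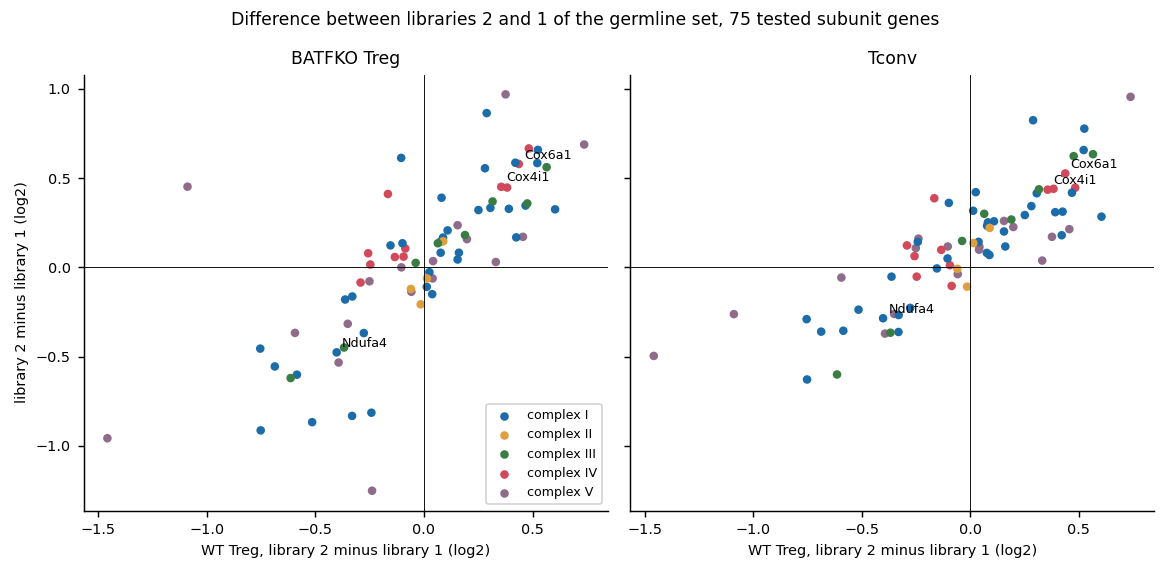
Log2 level of library 2 minus library 1 for the 75 tested members, in WT Treg (horizontal axes) against BATFKO Treg (left, vertical axis) and Tconv (right), 1 point per gene, coloured by complex. Most points lie where both axes have the same sign, with Ndufa4 below 0 and Cox4i1 above 0 in all 3 groups.

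Loss of Batf was measured in a germline and a conditional model. In BATFKO against WT Treg, edgeR called 0 of 75 members in either direction, against 1.05% of all genes higher and 1.64% lower. An unadjusted edgeR p below 0.05 was reached by 6 members, against 11.9% of all tested genes, and DESeq2 called 0. The levels nonetheless leaned one way: 69 of 75 log2 fold changes were above 0, against 48.9% of all genes, with a median of 0.16 (-0.00 over all genes). All come from the same libraries, so the signs are not independent. Of the lists described below, medians were 0.129 for mitochondrial ribosomal proteins, 0.116 for carriers and porins and 0.086 for assembly factors. They were 0.091 for respiratory proteins outside the symbol rule, 0.083 for the citric acid cycle, 0.058 for fatty acid oxidation, 0.002 for biogenesis regulators and -0.022 for glycolysis. By complex, above 0 lay 34 of 35 genes of complex I, 2 of 4 of complex II, 8 of 8 of complex III, 11 of 11 tested genes of complex IV and 14 of 17 of complex V. Both BATFKO libraries exceeded both WT libraries in 25 members (11.1% of all genes), and the reverse held for 0 (14.2%). The summed level was 5514 and 5755 CPM in WT Treg and 6071 and 6414 in BATFKO Treg, with no overlap. The smallest p-values were those of Cox6b1, with 84.7 and 77.2 CPM in WT Treg and 99.8 and 104.0 in BATFKO Treg (0.33, 95% interval 0.12 to 0.55, edgeR adjusted p 0.11), then Atp5e, the epsilon subunit of the ATP synthase (0.35, adjusted p 0.12), and Ndufb11 of complex I (0.30, adjusted p 0.15). Leaving out BATFKO Treg 1 gave 2 higher calls, Atp5e (0.48) and Ndufb10 (0.50). With the library number as a block, edgeR called 5 higher (Atp5e, Cox6b1, Ndufa6, Cox4i1 and Uqcrc2) and 0 lower, and the same libraries without the block gave 0 calls. The share of all genes called in these fits was not counted.

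In BATFcKO against WT Treg YFP, edgeR again called 0 of 75, against 0.319% of all genes higher and 1.72% lower. Unadjusted, 0 reached 0.05, against 10.7% of all tested genes, and DESeq2 called 0. The median was 0.06, with 49 of 75 above 0 (46.9% of all genes), and for 59 members the 95% interval lay within 1.5-fold. The summed level was 6768 and 6376 CPM in WT Treg YFP and 6950 and 6868 in BATFcKO Treg YFP. First by p came Uqcrfs1 (75.7 and 78.1 against 86.8 and 90.02 CPM, 0.20, edgeR adjusted p 0.48), Atp5s (-0.91, 0.49) and Ndufa6 (0.27, 0.55). The germline effect minus the conditional effect had 0 members called, against 0% of all genes, and DESeq2 called 0. By unadjusted p, 1 member passed 0.05, against 5.18% of all tested genes. It was Cox6b1 (0.43, 95% interval 0.12 to 0.73, edgeR adjusted p 0.71), followed by Ndufb2 (0.46, 0.97) and Atp5j2 (0.31, 0.98).

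The Foxp3 mutants gave no call by edgeR either. In Foxp3R397W against its controls, 0 of 75 members were called (2.18% of all genes higher and 3.94% lower), and DESeq2 called 0. An unadjusted edgeR p below 0.05 was reached by 8, against 16.3% of all tested genes. The log2 fold change was below 0 for 56 members, with a median of -0.10 (-0.01 over all genes), and 30 had both mutant libraries below both controls (26.3% of all genes). The summed level was 5762 and 5414 CPM in the controls and 5334 and 5140 in the mutant. Cox6b1 had the smallest p, with 106.2 and 87.2 CPM in the controls and 80.2 and 75.4 in the mutant (-0.31, 95% interval -0.53 to -0.10, edgeR adjusted p 0.09). It was called lower without control 4 and in the fit on these 4 libraries alone. Cox7c (-0.61, edgeR adjusted p 0.19) and Ndufs6 (-0.36, 0.21) followed.

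In Foxp3KO against its controls, 0 of 75 members were called by edgeR, against 2.62% of all genes higher and 6.39% lower. Unadjusted, 4 had a p below 0.05, against 19.8% of all tested genes. DESeq2 called 1, Cox7a2l. This gene had 270.8 and 259.5 CPM in the controls and 301.4 and 310.3 in the mutant, a difference of 0.21 (95% interval 0.03 to 0.38, edgeR adjusted p 0.15). Atp5g3, of the c-ring of the ATP synthase, differed by -0.22 (edgeR adjusted p 0.19), from 175.2 and 184.6 to 157.0 and 151.0 CPM, and Sdhd, a membrane anchor of complex II, by -0.19 (0.23). Below 0 lay 55 of 75, with a median of -0.07 (0.01 over all genes), and for 67 members the 95% interval lay within 1.5-fold, the most of any comparison. These libraries are the deepest and closest to each other, and the fit on them alone called 3 members higher (Cox7a2l, Uqcrfs1 and Atp5sl) and 14 lower. Without the WT Treg, BATFKO Treg and Tconv libraries the same 3 were higher, and Cox8a, Atp5g3 and Ndufa4 lower. The Foxp3KO effect minus the Foxp3R397W effect had 0 members called (0.0164% of all genes), 2 with an unadjusted p below 0.05 (3.33% of all genes) and 0 by DESeq2. The smallest p-values were those of Cox7c (0.59, 95% interval 0.05 to 1.14), Uqcrfs1 (0.29, 0.01 to 0.57) and Uqcrh (0.23, -0.02 to 0.49), each with an edgeR adjusted p of 1. Cox7c had 5.957 and 4.979 CPM in the R397W controls and 3.514 and 3.661 in Foxp3R397W Treg. In the Foxp3KO set it had 79.73 and 79.65 CPM in the controls and 77.02 and 80.86 in the mutant.

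The 2 control groups share genotype and gate but not the levels of several members. In the Foxp3KO controls 12 members were over 2-fold higher than in the R397W controls and 0 over 2-fold lower, against 6.85% and 1.78% of all tested genes. Of these 12, Atp5g1, Atp5g2 and Atp5l met the read minimum only through the libraries in which they are high, so their folds describe the choice of members, and 9 of the other 72 members remain. The extremes were Atp5g2 (150-fold), Atp5l (79.4-fold), Atp5g1 (31.2-fold) and Cox7c (14.6-fold), followed by Atp5h, Cox5b, Ndufa12, Uqcrb, Ndufb4, Cox7a2l, Ndufs3 and Cox8a, between 4.801-fold and 2.027-fold. Foxp3KO Treg shared these levels with their controls. In 17 members all 4 libraries of that set lay above the other 22, and in 4 below. Atp5g1, Atp5g2 and Atp5l are among the 17, again through the choice of members. The share of all genes set apart in this way was not counted. The difference lay between sets of libraries, and the set and whatever else differed between the sets cannot be told apart. Each comparison between groups was tested within a set. The Foxp3KO effect minus the Foxp3R397W effect, and the germline minus the conditional Batf effect, set changes from different sets against each other. In these 2 differences, what belongs to the mutation and what belongs to the set cannot be told apart. Cox7c, with the smallest p in the former, is among the members whose levels differ between the control groups. The ranges and means given over all libraries pool the sets. Atp5g2 passed the expression filter only through these 4 libraries, and was not among the 74 members tested when they were left out.

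**Figure D5:**
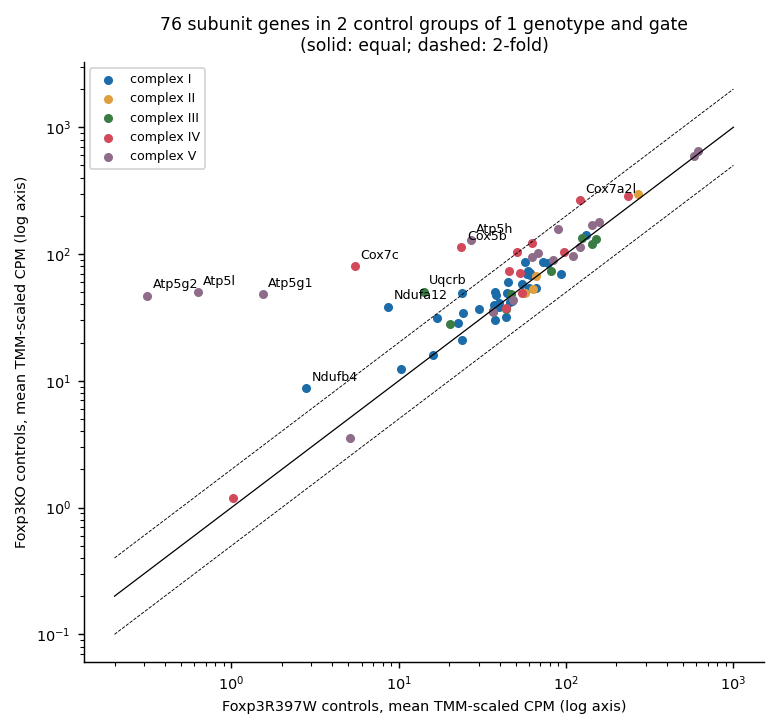
Mean TMM-scaled CPM of the 76 members in the Foxp3R397W controls (horizontal, log axis) and the Foxp3KO controls (vertical, log axis), which share genotype and gate, 1 point per gene, coloured by complex. The solid line marks equal levels and the dashed lines 2-fold, and 12 genes lie above the upper dashed line and 0 below the lower one.

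The c-ring of the ATP synthase is described for its isoforms. It is built from a protein that Atp5g1, Atp5g2 and Atp5g3 all encode, with different targeting sequences. Atp5g1 and Atp5g2 met the read minimum only through the Foxp3KO set, so their high levels there describe the choice of members. Outside the Foxp3KO set Atp5g3 had 136.4 to 188.7 CPM, whereas Atp5g1 had at most 2.44 and Atp5g2 at most 0.803. In the Foxp3KO set Atp5g3 had 151.0 to 184.6 CPM, in the same range, but Atp5g1 had 42.1 to 48.7 and Atp5g2 43.3 to 47.3. Neither Atp5g1 nor Atp5g2 was called by edgeR in a comparison within a set. These genes are paralogs, and no source used here says how reads matching more than 1 of them were counted, so the split between them is uncertain.

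Other isoform families were carried by their ubiquitous members. Cox4i1 had 220.6 to 345.0 CPM, and Cox4i2, its lung and hypoxia isoform, 43 reads over all libraries. Cox6b1 ranged from 68.3 to 112.7 CPM, whereas the testis isoform Cox6b2 had at most 1.76. Cox7a2 had 35.9 to 63.3 CPM and the heart and muscle isoform Cox7a1 at most 1.58. Cox8a had 39.7 to 108.4 CPM, against 11 reads in all of the muscle isoform Cox8b and 0 of the testis isoform Cox8c. Ndufa4 ranged from 43.7 to 80.3 CPM, and Ndufa4l2 had 4 reads in all. Cox7b2 and Ndufs5 were listed at 0 in every library. Ndufs5 encodes a complex I subunit that cells with a working chain need, so its 0 says only how the table lists it.

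Cox6a2, the heart and muscle isoform of Cox6a1 and under the read minimum, stood out in a single group. It had 9.28 CPM in Teff 1 and 1.37 in Teff 2, from 95 and 15 reads, and at most 0.161 CPM in every other library. Siglech, a marker of plasmacytoid dendritic cells, ran alongside, with 92.3 CPM in Teff 1, 19.98 in Teff 2 and at most 0.482 elsewhere. The part of such cells in the Cox6a2 level was not tested. Cox6a1 had 97.6 and 100.8 CPM in the same libraries, next to 93.7 and 102.2 in Tnaive.

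The genes around the chain were taken from lists written from general knowledge, and their counts stand beside the 18.8% of all tested genes called higher and 12.3% lower in eTreg against cTreg, and the 21.2% and 14% in Teff against Tnaive. Among 47 tested assembly factors, 2 rose and 3 fell in eTreg against cTreg, and 4 rose and 1 fell in Teff against Tnaive. Surf1, needed to assemble complex IV, rose in both (0.46, edgeR adjusted p 0.0024, and 0.40, 0.0062), and the copper chaperone Cox17 rose in Teff (0.65, edgeR adjusted p 0.0023). Sdhaf1, which inserts iron-sulfur clusters into Sdhb, was higher in Treg in all 3 settings, by 0.85 in cTreg against Tnaive, 1.01 in eTreg against Teff and 1.04 in WT Treg against Tconv (edgeR adjusted p 0.0025, 0.00043 and 0.00041). Cox10, which makes the heme of complex IV, was lower in all 3, with log2 changes of -0.66, -0.89 and -0.71 (edgeR adjusted p 0.02, 0.002 and 0.013). Of 77 mitochondrial ribosomal proteins 1 rose and 1 fell in eTreg and 1 rose and 2 fell in Teff. Of 6 carriers and porins 1 fell in eTreg, the ADP/ATP carrier Slc25a5 (-0.33, edgeR adjusted p 0.0025), and 0 were called in Teff.

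Atpif1, the inhibitor of the ATP synthase and no member by its symbol, showed larger log2 changes with activation than any called subunit. It was higher in eTreg than in cTreg (33.1 against 19.3 CPM, 0.78, SE 0.14, edgeR adjusted p 0.0003) and in Teff than in Tnaive (20.5 against 10.5, 0.97, edgeR adjusted p 5.5e-05). It was also higher in each Treg group than in its conventional counterpart, by 0.88 for cTreg, 0.69 for eTreg and 0.92 for the WT cells (adjusted p 0.00043, 0.0018 and 0.0004 by edgeR). In the Foxp3 mutants it was lower than in their controls, with log2 changes of -0.65 in Foxp3R397W (24.98 to 15.99 CPM, edgeR adjusted p 0.016) and -0.62 in Foxp3KO (33.5 to 21.9 CPM, edgeR adjusted p 0.0047). Of the 8 tested respiratory proteins outside the symbol rule, Atpif1 was the single one called in these comparisons, except for Cycs in cTreg against Tnaive (1.19, edgeR adjusted p 0.035), at 1.97 and 0.859 CPM.

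Of 21 genes on the glycolysis list, which includes glucose and lactate transporters and Pdk1, 7 rose and 2 fell in eTreg, with a median of 0.27, and 7 rose and 1 fell in Teff, with a median of 0.29, where 18.8% and 12.3% of all genes were called in eTreg and 21.2% and 14% in Teff. The triose phosphate isomerase Tpi1 rose in eTreg by 1.25 (edgeR adjusted p 1.4e-06), and the hexokinase Hk2 rose in Teff by 2.94 (edgeR adjusted p 1.1e-06). Pdk1, a kinase that switches off pyruvate dehydrogenase, fell by 1.43 in eTreg and by 2.25 in Teff (edgeR adjusted p 5e-09 and 7.6e-12). Of 20 genes of the citric acid cycle and pyruvate dehydrogenase 3 fell in eTreg, and 2 fell and 1 rose in Teff. Pdha1, the E1 alpha subunit of pyruvate dehydrogenase, fell in both (-0.52 and -0.37, edgeR adjusted p 0.00028 and 0.0044), as did Idh2, the mitochondrial NADP-dependent isocitrate dehydrogenase (-0.53 and -1.08, edgeR adjusted p 0.021 and 3e-05). Of 15 fatty acid oxidation genes 3 rose and 2 fell in each comparison, with Etfb, of the electron transfer flavoprotein, rising (0.53 and 0.90, edgeR adjusted p 0.0079 and 6.8e-05) and Acaa2, a thiolase, falling (-0.42 and -0.61, edgeR adjusted p 0.0023 and 4.6e-05).

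Among 15 tested regulators of mitochondrial biogenesis, 1 rose and 3 fell in eTreg, and 0 rose and 5 fell in Teff, against 12.3% and 14% of all genes called lower. Myc fell by 1.65 and by 1.49 (edgeR adjusted p 4.6e-09 and 9.7e-09). Pprc1, a coactivator related to PGC-1, fell by 0.53 and by 0.88 (edgeR adjusted p 0.0041 and 2.5e-05). In the Foxp3KO comparison 1 gene of the glycolysis list rose, Pdk1 (0.59, edgeR adjusted p 0.00055), and 5 fell, against 2.62% and 6.39% of all genes. The smallest p among them was that of the glucose transporter Slc2a3 (-0.93, edgeR adjusted p 5.1e-05). In Foxp3R397W against its controls 1 gene of this list rose and 3 fell, against 2.18% and 3.94% of all genes. Pdk1 was again the gene that rose (0.65, edgeR adjusted p 0.00045). Slc2a3 was among the 3 that fell (-0.88, edgeR adjusted p 0.00021).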

How the data were processed

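Values were whole-number read counts per gene symbol, deposited by the authors as tables for 26 libraries. Alignment with STAR 2.6.1c to mm10 is given in the submitters' processing notes. The counter and its strand setting are not given in the sources used here. Library kits were NEBNext Ultra Directional or UltraII, per the labels' protocols, without an assignment to libraries. Exons of 19 members overlap another counted gene (Cox6c and Vps13b, Atp5j and Gabpa, among others), so their values are uncertain. Another 4 columns carry names found in no label and were left unused.

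The edgeR expression filter kept 12227 genes and removed 12184. edgeR 4.0.16 in R 4.3.3 fitted a robust quasi-likelihood model to all 26 libraries, with TMM scaling, 1 coefficient for each of 13 groups and 13 residual degrees of freedom. Adjusted p-values are Benjamini-Hochberg over all tested genes, with a threshold of 0.05. Standard errors are approximate, from the ratio of each absolute log2 change to the root of its F value. The fit was tested on simulated counts. DESeq2 1.42.0 was an alternative, beside other size factors, TMM without the members, no filter, fewer libraries, a replicate block and leaving out each library. Library numbers pair the WT Treg, BATFKO Treg and Tconv libraries by their values alone: deviations of same-numbered libraries correlated at 0.495 to 0.571 over genes for the 3 pairs of groups, and the labels state no pairing. Positions and exon lengths come from GENCODE M21, which matched 75 of the 76 members.

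The members, the lists and the markers were chosen with earlier results of these data known. The lists hold assembly factors, the citric acid cycle, glycolysis, fatty acid oxidation, biogenesis regulators, carriers, mitochondrial ribosomal proteins and respiratory proteins outside the rule. Markers cover T cells, Treg, B cells, myeloid and dendritic, CD8 and NK, erythroid and stromal cells. Named members are catalytic or core subunits, members of isoform families, up to 8 called members in each direction, and, where fewer than 3 were called, the 3 uncalled ones with the smallest p. From other lists up to 4 called genes are named. Uqcr10 in eTreg against cTreg, Cox5b and Cox6c in Teff against Tnaive, and the use of Cox4i1 and Ndufa4 as examples for the numbered libraries were chosen after their values were seen. The result for 1 core subunit is not reported here.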

Additional observations from a re-analysis of the deposited data

How the results depend on the processing

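The counts in this section are of members, and the share of all genes called in the same fits was not counted. Other size factors, TMM without the members and DESeq2 changed few counts: members called higher in Teff against Tnaive went from 2 to 1 with DESeq2 size factors, and DESeq2 called 1 higher in Foxp3KO. Without a filter on low counts, Teff against Tnaive had 0 higher and 1 lower, and cTreg against Tnaive 0 lower. On the libraries of each comparison alone, higher and lower calls were 2 and 13 in eTreg against cTreg, 13 and 3 in Teff against Tnaive, and 3 and 14 in Foxp3KO. Lower calls were 2 in cTreg against Tnaive, 0 in WT Treg against Tconv, 1 in Foxp3R397W and 1 in the difference between the activation changes.

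The following were chosen after seeing the data. Without the Foxp3KO set, Teff against Tnaive had 1 higher. Without WT Treg, BATFKO Treg and Tconv, calls were 2 higher and 7 lower in eTreg against cTreg, 13 higher and 5 lower in Teff against Tnaive, 2 lower in cTreg against Tnaive, 7 lower in eTreg against Teff, 1 higher in BATFcKO, 1 lower in Foxp3R397W, 3 and 3 in Foxp3KO and 1 lower in the activation difference. That fit had a common dispersion of 0.00573, against 0.0147 with all libraries.

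Leaving out 1 library gave 3 to 4 lower in eTreg against cTreg, 0 to 2 higher and 1 to 2 lower in Teff against Tnaive, 0 to 1 lower in cTreg against Tnaive, 0 to 1 lower in eTreg against Teff, 0 to 1 higher and 0 to 3 lower in WT Treg against Tconv, 0 to 2 higher in BATFKO and 0 to 1 lower in Foxp3R397W. A group left with 1 library was assumed to vary like the others.

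With the replicate number as a block, fitted on the libraries that share numbers, higher and lower calls were 2 and 17 in eTreg against cTreg, 18 and 8 in Teff against Tnaive, 1 and 3 in cTreg against Tnaive, 18 lower in eTreg against Teff, 3 higher and 4 lower in WT Treg against Tconv, 5 higher in BATFKO, 3 higher in BATFcKO and 3 lower in the activation difference. The same libraries without the block gave 2 and 11 in eTreg against cTreg, 14 and 6 in Teff against Tnaive, 7 lower in eTreg against Teff, 0 lower in WT Treg against Tconv and 1 lower in the activation difference. Deviations of same-numbered libraries correlated at 0.08 to 0.233 among the sorted cells and at 0.242 in the YFP groups, over genes, and the labels state no pairing. No paired analysis was possible for Foxp3R397W and Foxp3KO because they share no numbers with their controls. The cause of these changes was not tested, and whether the share of all genes called changed alike was not counted. Atp5l, Atp5g1 and Atp5g2 had at most 16 reads per library outside the Foxp3KO set.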
